A study of Mus musculus with 4 samples.

Results

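Interleukin-6 (IL-6) family cytokine genes and their feedback genes were read from mouse mesangial cell arrays, after TGF-beta1 and in low glucose. The genes were Lif, Il6, Il11 and Clcf1 (ligands), Osmr and Il6st (receptor chains), Stat3 (the transcription factor) and Socs2 and Socs3 (feedback inhibitors). Every probe set whose platform annotation names 1 of these genes and no other was taken, which gave 27 of the 45037 probe sets that are not controls and 9 of the 18193 genes named in this way. A probe set is a group of short oligonucleotides on the array that reads 1 transcript or a part of it. Total RNA from cultured mesangial cells, the contractile pericytes of the kidney glomerulus, was hybridised to 4 one-colour arrays. Per the titles and descriptions, TGF-beta1 replicates 1 and 2 stand for treatment with transforming growth factor beta 1, and low glucose replicates 1 and 2 for culture in low glucose. The labels state no dose, time, glucose level or mouse strain, and do not say if 1 culture or several gave the RNA of a group. The spread behind every p-value is that of 4 arrays and may be technical, and TGF-beta1 and any difference in glucose cannot be told apart.

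Cytokines of the IL-6 family are secreted helical proteins that act on a shared signalling receptor chain, the product of Il6st, together with a partner chain such as the LIF receptor or the oncostatin M receptor. Bound receptors activate JAK kinases, which phosphorylate STAT3. STAT3 enters the nucleus and raises target genes, among them Socs3, whose protein binds the shared chain and JAKs and shuts the signal off. In cultured mesangial cells, IL-6 family cytokines are known as locally made growth and inflammatory signals, and TGF-beta is known to induce Lif and Il11 in several fibroblast-like cells.

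The clearest differences among these genes were in 2 ligands. Lif rose 1.76-fold in TGF-beta1 on 1 of its 2 probe sets and Clcf1 rose 1.37-fold to 1.73-fold on all 3, while Il11 and the receptor chains Osmr and Il6st had no called probe set. Stat3 was not called on any of its probe sets. For the feedback genes Socs2 and Socs3, 2 and 1 of the 3 tested probe sets of each rose, by smaller amounts. The TGF-beta1 and low glucose arrays overlapped on each of these called probe sets. Outside these 9 genes, Lifr, the receptor chain that binds LIF, fell, and 16 of 25 tested STAT3 target genes rose. The 9 genes and the list of STAT3 target genes were chosen with earlier results of these data known, so their counts are a description.

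Each difference is TGF-beta1 minus low glucose in log2(intensity + 46.9) after quantile normalisation, which understates the change of dim probe sets. A probe set is said to have risen or fallen where limma gave an adjusted p under 0.05, in a fit over 27022 probe sets in which the array pair is a block. The 2 array pairs each hold 1 array of either group: pair 1 is TGF-beta1 replicate 2 with low glucose replicate 1, and pair 2 is TGF-beta1 replicate 1 with low glucose replicate 2. They were found from 18 probe sets of spiked-in hybridisation controls, which differed on average by 0.053 and 0.089 log2 units within pairs and by at least 0.97 between them. In this fit 15.9% of all tested probe sets passed, 6.94% higher and 8.91% lower in TGF-beta1. Its calls rest on the block and on a spread shared by all probe sets of a brightness. Without the block limma called 0 probe sets (441, or 1.63%, had an unadjusted p under 0.05), and with the block and the prior of the fit without it, limma also called 0. With 2 arrays against 2, an exact two-sided permutation test of a single value cannot go below p = 0.333.

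Of the 27 probe sets, 21 passed the filter on low values and were tested, which covered 8 of the 9 genes. Of these 21, 7 rose (33.3%, against 6.94% of all tested probe sets), 0 fell and 14 were not called, and their median difference was 0.13, against 0.00296 over all tested probe sets. The smallest unadjusted p of the 21 without the block was 0.00836, and 4 of them were under 0.05, all among the 7 called probe sets. In 19 of the 21 the difference had the same sign within both pairs. Some of these within-pair differences were near 0, such as 0.0014 in pair 1 for Stat3 1424272_at. No share over all tested probe sets is given beside that count, so it is a description. Both TGF-beta1 arrays lay above both low glucose arrays on the log2 scale in 8 of the 21 and below them in 1, against 9.53% and 10.2% of all tested probe sets (19.8% in either direction). A difference of at least 0.5 was found higher in 3 and lower in 0 of the 21, against 0.958% and 0.492% of all. These counts describe the 21 that passed the filter on the mean of the 4 arrays, not all 27. Among the 7 that rose, Socs2 1418507_s_at passed it only through TGF-beta1, where it is high, so its call carries no weight in these counts. Osmr 1418675_at, among the 8 with both TGF-beta1 arrays above, also passed only through TGF-beta1. Its mean log2 value was 6.942 in TGF-beta1 and 6.853 in low glucose, against a filter limit of 6.854. Its place among the 8 carries no weight either. In a fit on 1 probe set per gene, that of highest mean, 3 of 8 genes rose (Lif, Clcf1 and Socs2), against 7.89% of genes higher and 18.5% in either direction. The tested probe sets of a gene read the same transcripts and are not independent of each other. The members were chosen with earlier results of these data known. The shares in this paragraph are therefore a description and no independent support.

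The 250 bases before the RefSeq start of Lif and Socs3 are shown because 1 probe set of each gene rose, with other probe sets of both not called. Each window also held a match to a motif of a factor in this pathway or of AP-1. The window of Il11, a ligand that was not called, is shown beside them. Capitals mark every match to the AP-1 motif TGANTCA, the SMAD motif CAGAC or the STAT motif TTCNNNGAA on either strand, and no 2 matches overlapped. The sequences are RefSeq's on GRCm38.p6, read 5′ to 3′ along the gene's own strand, for Lif (chr11:4257318-4257567, plus strand), Socs3 (chr11:117969367-117969616, minus strand) and Il11 (chr7:4778142-4778391, minus strand).
Lif: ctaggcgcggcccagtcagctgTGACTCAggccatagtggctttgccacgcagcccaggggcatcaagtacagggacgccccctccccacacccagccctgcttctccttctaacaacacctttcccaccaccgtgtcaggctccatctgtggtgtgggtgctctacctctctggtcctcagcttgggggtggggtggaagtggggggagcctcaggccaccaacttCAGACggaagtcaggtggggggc
Socs3: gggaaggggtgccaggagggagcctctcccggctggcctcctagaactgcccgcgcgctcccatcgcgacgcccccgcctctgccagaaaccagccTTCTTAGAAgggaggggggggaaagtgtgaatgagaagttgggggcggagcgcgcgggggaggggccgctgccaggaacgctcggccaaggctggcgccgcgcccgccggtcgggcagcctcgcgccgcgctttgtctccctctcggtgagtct
Il11: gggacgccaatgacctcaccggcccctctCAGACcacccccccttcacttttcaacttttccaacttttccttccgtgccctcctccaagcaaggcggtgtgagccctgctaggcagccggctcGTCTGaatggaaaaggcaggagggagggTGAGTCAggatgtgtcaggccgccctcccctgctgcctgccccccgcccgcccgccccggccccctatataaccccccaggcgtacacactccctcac

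The Lif window held 1 AP-1 match, starting 228 bases before the start, and 1 SMAD match at 23 bases. The Socs3 window held 1 STAT match at 154 bases and no AP-1 or SMAD match. The Il11 window held 1 AP-1 match at 98 bases and 2 SMAD matches, at 221 and 126 bases, and a second RefSeq start of Il11 had 2 SMAD matches only. Of 32851 windows of this length, 6.75% held the AP-1 motif, 42.2% the SMAD motif, 7.02% the STAT motif and 1.55% the cyclic AMP response element TGACGTCA, which none of the members' windows held. Windows were found for 7 of the 9 genes, and those of Clcf1 and Socs2 are not shown. Il6 had 1 AP-1 match, at 249 bases, and Osmr, Il6st and Stat3 had no match to any of these motifs. A match describes letters in the window and is not evidence of binding.

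Lif encodes leukaemia inhibitory factor. Its brighter probe set, 1421207_at, had intensities of 253 and 239 on TGF-beta1 replicates 1 and 2, against 111 and 124 on low glucose replicates 1 and 2. Both TGF-beta1 arrays were above both low glucose arrays, with no overlap. It rose by 0.82 ± 0.064, or 1.76-fold (SE of the blocked limma fit, n = 2 arrays per group, adjusted p = 2.61e-34 with limma). The difference was 0.90 within pair 1 and 0.73 within pair 2. Every SE of this fit is the spread shared by probe sets of a brightness, and not the probe set's own. With the block and the prior of the fit without it, the adjusted p was 0.153 with limma. On the deposited scale the ratio was 2.16 in pair 1 and 2.03 in pair 2. Its difference was number 72 from the highest of the 27022 tested probe sets. The other Lif probe set, 1450160_at, had 93.1 and 111 in TGF-beta1, against 93.9 and 87.2 in low glucose. Its groups overlapped slightly in the deposited intensities, and its difference of 0.08 ± 0.070 was not called (adjusted p = 0.503 with limma). The 2 probe sets of Lif therefore gave different sizes, and the files do not say which transcripts each one reads.

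Clcf1 encodes cardiotrophin-like cytokine factor 1, a ligand of the ciliary neurotrophic factor receptor complex that also contains the LIF receptor and the shared chain. All 3 of its probe sets rose. The brightest, 1437270_a_at, had 564 and 476 on TGF-beta1 replicates 1 and 2, against 234 and 345 on low glucose replicates 1 and 2. No low glucose array reached either TGF-beta1 array. Its difference was 0.79 ± 0.077, at 0.95 in pair 1 and 0.63 in pair 2 (adjusted p = 1.95e-22 with limma). With the block and the prior of the fit without it, the adjusted p was 0.179 with limma. The difference was 0.52 without low glucose replicate 1, in a fit without the block.

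The second Clcf1 probe set, 1437271_at, had 402 and 400 in TGF-beta1, against 230 and 249 in low glucose. The groups did not overlap, and the difference was 0.66 ± 0.073 (0.74 in pair 1 and 0.58 in pair 2; adjusted p = 3.81e-17 with limma). The dimmest, 1450262_at, had 234 and 289 in TGF-beta1, against 198 and 161 in low glucose. It did not overlap either, and rose by 0.45 ± 0.067 (0.50 and 0.40; adjusted p = 9.84e-10 with limma). The sizes on the 3 probe sets thus ran between 1.37-fold and 1.73-fold.

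Il11 encodes interleukin 11, which signals through the same shared chain. Its single probe set had 96.8 and 168 on TGF-beta1 replicates 1 and 2, against 196 and 90.3 on low glucose replicates 1 and 2. The high values were the 2 arrays of pair 1 and the low values the 2 of pair 2, and both TGF-beta1 values lay between the low glucose values. The difference was -0.08 ± 0.064, with -0.20 in pair 1 and 0.04 in pair 2 (adjusted p = 0.468 with limma), and the gap between the pairs, 0.51, was larger than the gap between the groups. Il6, interleukin 6 itself, had intensities of 23.9 and 17.8 in TGF-beta1, against 22.0 and 12.0 in low glucose, below the filter, whose limit lies near an intensity of 68.8. It was not tested, and its difference of 0.10 (-0.09 and 0.30 within the pairs) is a description. At such levels these arrays limit what can be said about Il6.

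**Figure D1:**
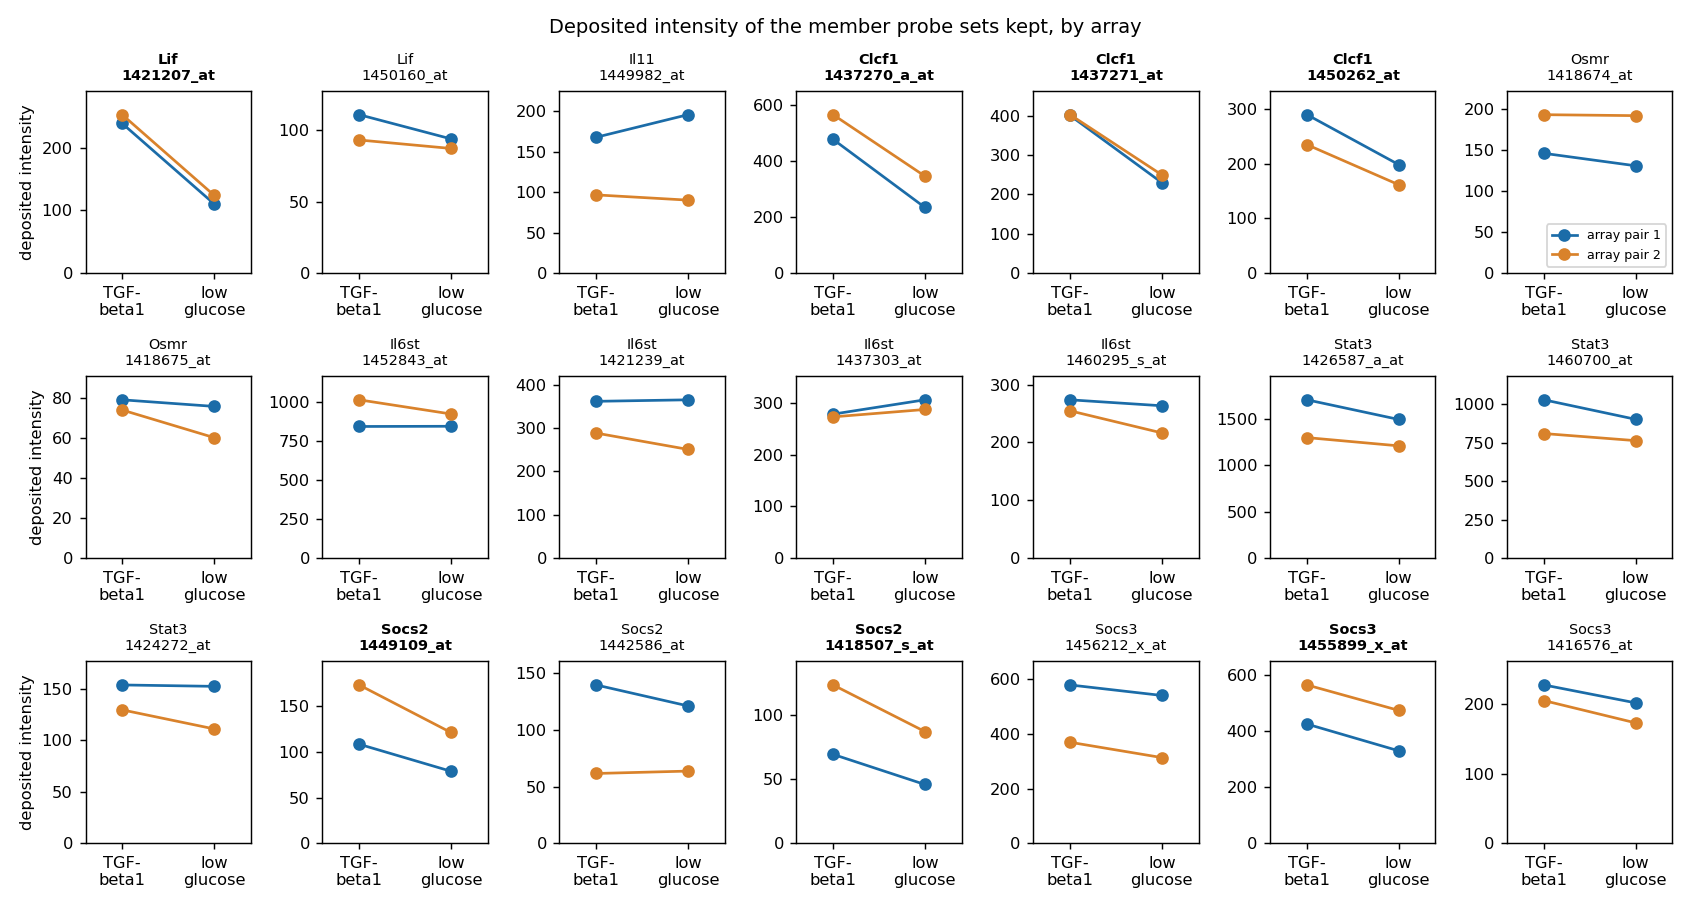
Deposited intensity (vertical axis, linear, from 0) of the 21 tested probe sets on each array, with TGF-beta1 left of low glucose; each line joins the arrays of 1 pair, and bold titles mark the 7 probe sets that rose. The lines of Lif 1421207_at and of the 3 Clcf1 probe sets fall steeply toward low glucose in both pairs, whereas Il11 and Osmr 1418674_at separate by array pair.

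Osmr encodes the oncostatin M receptor chain. Probe set 1418674_at had 193 and 146 in TGF-beta1, against 131 and 192 in low glucose, and again the pairs rather than the groups set the order. Its difference was 0.05 ± 0.064 (adjusted p = 0.646 with limma). A dimmer probe set, 1418675_at, was at 0.09 ± 0.079 without being called, and 1459217_at, below the filter, was at -0.10. Il6st, the shared signal-transducing chain, was bright on its main probe set, with 1012 and 842 in TGF-beta1, against 843 and 922 in low glucose. Its 4 probe sets ran between -0.09 and 0.12, 3 above 0 and 1 below, and none was called.

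Stat3 was the brightest member, and probe set 1426587_a_at had 1296 and 1702 on TGF-beta1 replicates 1 and 2, against 1491 and 1207 on low glucose replicates 1 and 2. Each TGF-beta1 array was above the low glucose array of its own pair, by 0.18 and 0.08, while the groups overlapped. The difference was 0.13 ± 0.078 (adjusted p = 0.26 with limma), and another bright probe set, 1460700_at, gave the same 0.13 ± 0.082. Probe set 1424272_at was at 0.07 ± 0.064. These are levels of messenger RNA, and the phosphorylation that activates STAT3 was not measured.

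Socs2 encodes an SH2-domain inhibitor best known for restraining growth hormone signalling through JAK2 and STAT5. Its probe set of highest mean, 1449109_at, had 173 and 108 on TGF-beta1 replicates 1 and 2, against 78.7 and 121 on low glucose replicates 1 and 2. The groups overlapped, since TGF-beta1 replicate 2 was below low glucose replicate 2, but each TGF-beta1 array was above its pair partner. It rose by 0.30 ± 0.066, with 0.26 and 0.35 within pairs 1 and 2 (adjusted p = 0.000102 with limma). Probe set 1418507_s_at had 123 and 69.4 in TGF-beta1, against 45.9 and 87.2 in low glucose, in the same order, and rose by 0.30 ± 0.076 (0.28 and 0.31; adjusted p = 0.00134 with limma). Its mean log2 value was 7.14 in TGF-beta1 and 6.84 in low glucose, where it lay under the filter limit of 6.85, and with no filter it was called as well (adjusted p = 0.00105 with limma). It was at 0.48 with a pseudocount of 1, and an identifier ending in _s_at marks a probe set that may match several transcripts. Probe set 1442586_at had 61.7 and 140 in TGF-beta1, against 121 and 63.8 in low glucose, and was at 0.04 ± 0.072 without being called. The other 3 probe sets of Socs2 were below the filter, with differences between 0.04 and 0.11.

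Socs3 encodes the inhibitor that STAT3 induces against the IL-6 family receptors. Probe set 1455899_x_at had 563 and 424 on TGF-beta1 replicates 1 and 2, against 329 and 473 on low glucose replicates 1 and 2. The groups overlapped, and within the pairs TGF-beta1 was higher by 0.35 and 0.24. It rose by 0.29 ± 0.079 (adjusted p = 0.00281 with limma). Its identifier ends in _x_at, which marks probes that may also bind other transcripts. Probe set 1416576_at had 205 and 228 in TGF-beta1, against 202 and 173 in low glucose. Its groups did not overlap, and its 0.17 ± 0.066 was not called (adjusted p = 0.0671 with limma). Probe set 1456212_x_at had 370 and 580 in TGF-beta1, against 541 and 314 in low glucose, and was at 0.15 ± 0.079 without being called (adjusted p = 0.217). All 3 were higher in TGF-beta1 within both pairs.

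Without the block, the unadjusted limma p was 0.00836 for Lif 1421207_at and 0.0125 to 0.0458 for the Clcf1 probe sets, against 0.397 for Socs2 1449109_at and 0.314 for Socs3 1455899_x_at. In a fit without the block, leaving out TGF-beta1 replicates 1 and 2 in turn gave -0.040 and 0.66 for Socs2 1449109_at, and leaving out low glucose replicates 1 and 2 in turn gave 0.0069 and 0.60. Socs2 1418507_s_at was at -0.048 without low glucose replicate 1, at 0.66 without replicate 2 of either group, and below the filter without TGF-beta1 replicate 1. Leaving out the TGF-beta1 arrays in turn gave 0.09 and 0.49 for Socs3 1455899_x_at, and leaving out the low glucose arrays in turn gave 0.037 and 0.54. Leaving out 1 array unbalances the pairs between the groups, so the gap between pairs enters these values.

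**Figure D2:**
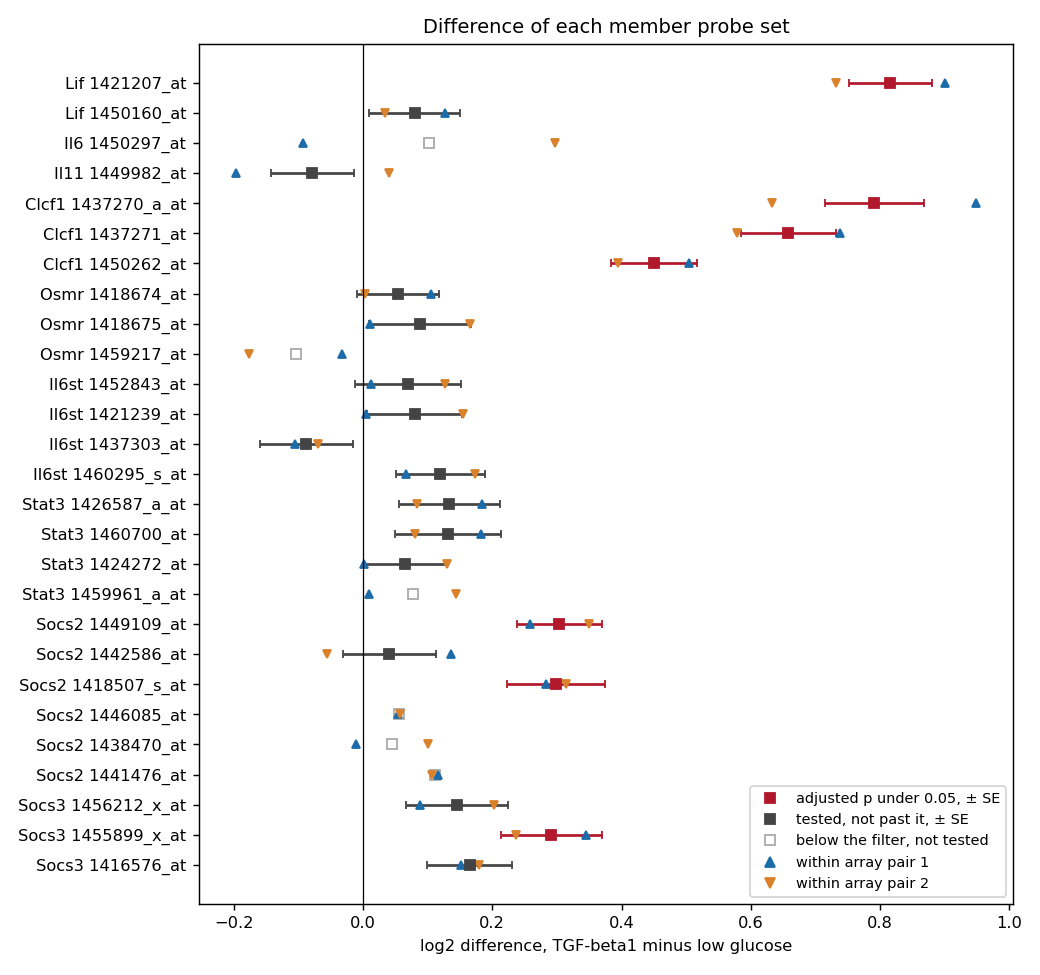
Log2 difference, TGF-beta1 minus low glucose (horizontal axis), of all 27 probe sets: squares with bars are the fitted difference ± SE, open squares were below the filter, and triangles are the differences within array pairs 1 and 2. Lif 1421207_at and the 3 Clcf1 probe sets stand between 0.45 and 0.82, the called Socs2 and Socs3 probe sets near 0.30, and the other tested ones between -0.09 and 0.17.

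The array pairs differed by more than the groups in 12 of the 21 tested probe sets, a count given without the share over all tested probe sets. Of all 21, 10 were brighter in pair 1 and 11 in pair 2. Probe sets of the same gene could go opposite ways between pairs. Socs3 1456212_x_at was brighter in pair 1 by 0.61 and Socs3 1455899_x_at brighter in pair 2, at -0.45 for pair 1 minus pair 2. Socs2 1449109_at was at -0.65 and 1442586_at at 0.50 on the same scale. A probe set of Stat3 below the filter, 1459961_a_at, had 105 and 41.5 on TGF-beta1 replicates 1 and 2, against 39.7 and 87.8 on low glucose replicates 1 and 2, a pair gap of -0.87 beside a group difference of 0.08. The part of the array pair in these differences beyond the block was not tested.

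**Figure D3:**
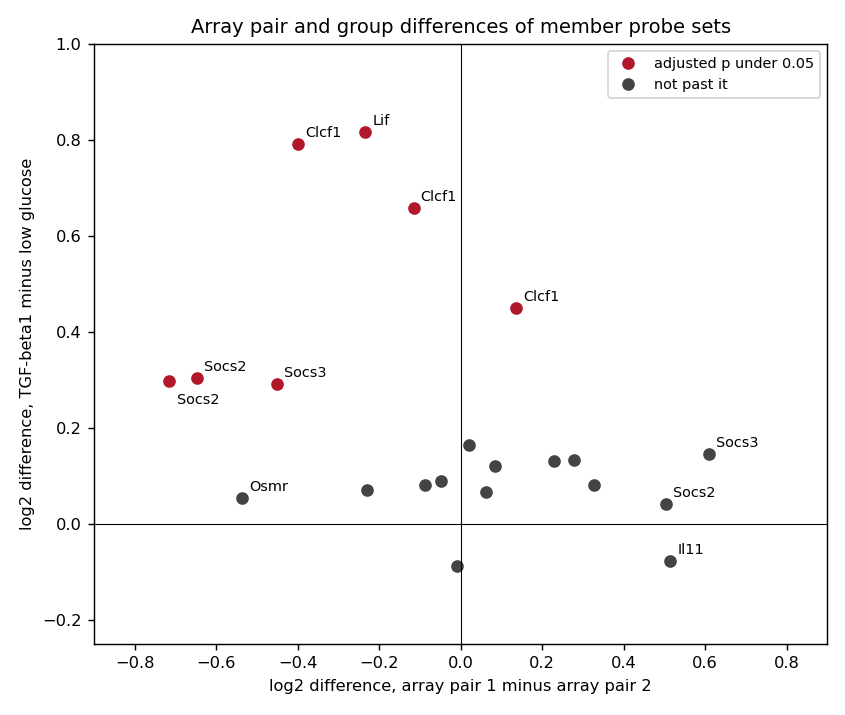
Group difference (vertical axis, log2, TGF-beta1 minus low glucose) against array pair difference (horizontal axis, log2, pair 1 minus pair 2) of the 21 tested probe sets, red where they rose. Lif 1421207_at and the 3 Clcf1 points lie between 0.45 and 0.82 with pair gaps between -0.40 and 0.13, while the called Socs2 points lie near 0.30 with pair gaps of -0.65 and -0.71.

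Further genes of the pathway were read on the probe set of highest mean of each gene. In the same fit, 7.53% of the 13565 genes read this way were called higher and 9.94% lower. Among 6 other receptor chains, 5 had a probe set, 3 were tested, 0 rose and 1 fell. The one that fell was Lifr, the LIF receptor chain, which also serves CLCF1. Probe set 1454984_at had 442 and 256 on TGF-beta1 replicates 1 and 2, against 395 and 677 on low glucose replicates 1 and 2. Each TGF-beta1 array was below its pair partner, by nearly the same amount, while the groups overlapped. The difference was -0.57 ± 0.078, at -0.56 in pair 1 and -0.58 in pair 2 (adjusted p = 2.91e-11 with limma). A second probe set fell as well, by 0.29 ± 0.070 (adjusted p = 0.000775 with limma), and the last one was at -0.06 ± 0.071 without being called. In the fit without the block, leaving out TGF-beta1 replicate 1 gave -0.93 for the first probe set and leaving out replicate 2 gave -0.19, and the same for low glucose gave -0.95 and -0.18. Lif 1421207_at was higher and this probe set of its receptor chain lower in TGF-beta1, in both pairs.

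Of 8 other ligands and soluble partners, 4 had a probe set and 2 were tested, Osm (oncostatin M) and Ctf1 (cardiotrophin 1), at 0.08 ± 0.071 and 0.06 ± 0.067, neither called. Of 10 JAK kinases and other STATs, 9 had a probe set and 8 were tested, and Stat5a, which growth hormone and prolactin signalling use, was the single one called, at -0.20 ± 0.075 (adjusted p = 0.0495 with limma). With no filter on low values and the block kept, Stat5a was not called (adjusted p = 0.0693 with limma). The list's median was -0.11. Of 15 other negative regulators, all were tested, 1 rose, 2 fell and 12 were not called. Socs5 rose by 0.41 ± 0.080, Pias3, an inhibitor of STAT3 binding to DNA, fell by 0.27 ± 0.081 and Socs4 by 0.24 ± 0.068. Socs1, the other classical feedback inhibitor of JAKs, was at 0.11 ± 0.072 without being called.

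Of 25 tested STAT3 target genes, 16 rose (64%), 0 fell and 9 were not called, against the 7.53% of genes called higher. Their median difference was 0.31, with 0.34 and 0.28 within pairs 1 and 2, and that of all genes was -0.000121. Both TGF-beta1 arrays were above both low glucose arrays in 14 of the 25, against 9.83% of genes. The largest rises were in Lcn2, the iron-binding protein lipocalin 2, at 1.19 ± 0.077, and Junb, an AP-1 subunit, at 0.98 ± 0.081. Pim1, a kinase that promotes survival, rose by 0.86 ± 0.077, and Cebpd, a transcription factor of the acute phase response, by 0.78 ± 0.067. Lcn2 had 648 and 570 in TGF-beta1, against 225 and 259 in low glucose, without overlap. Pim1 had 772 and 351 on TGF-beta1 replicates 1 and 2, against 186 and 403 on low glucose replicates 1 and 2, and its groups overlapped. The other 12 that rose lay between 0.20 and 0.75. The 9 not called lay between -0.07 and 0.20 and were Bcl2l1, Hif1a, Saa3, Il4ra, Birc5, Muc1, Jak3, A2m and Batf. Icam1, Fgg and Hp were below the filter and not tested. Several genes of this list, such as Junb, Fos and Myc, are also known as immediate-early genes that other signals induce. The list was chosen with earlier results of these data known, so its shares are a description and no independent support. Which signal raised these genes was not tested.

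**Figure D4:**
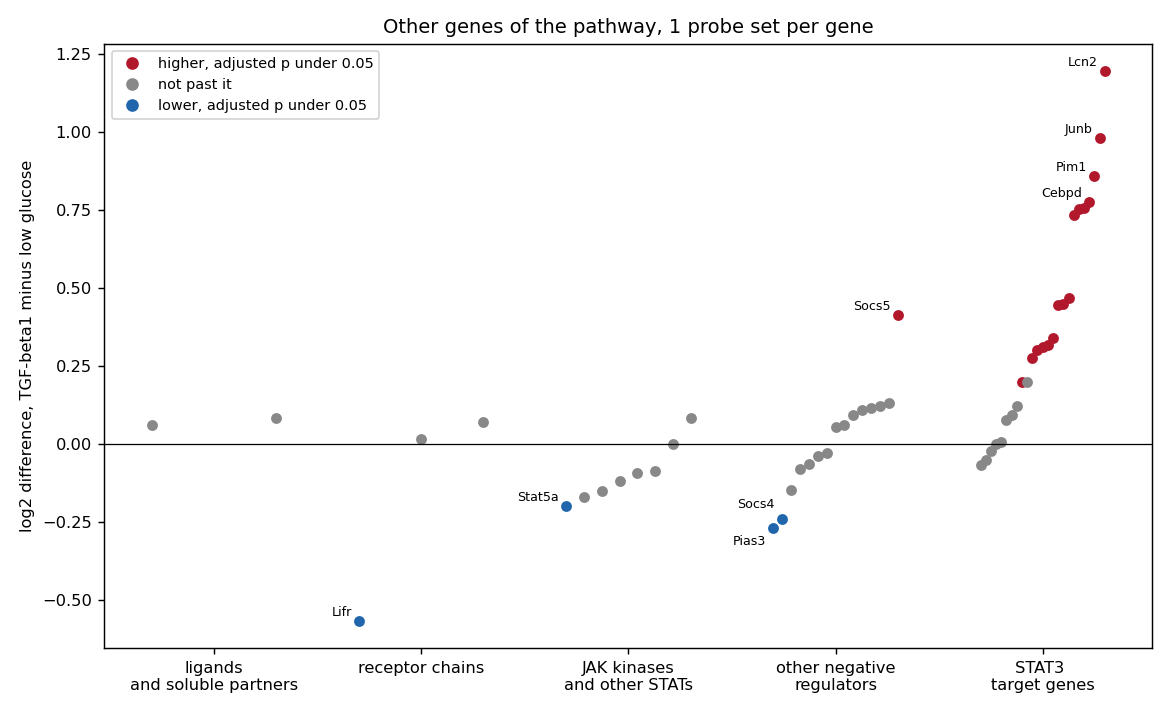
Log2 difference, TGF-beta1 minus low glucose (vertical axis), of tested genes of 5 lists of the IL-6 family pathway, 1 point per gene in order of size within a list, red for higher and blue for lower at an adjusted p under 0.05. STAT3 target genes reach 1.19 with 16 of 25 red, and among the receptor chains Lifr stands alone at -0.57.

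By Euclidean distance of the log2 values centred on the mean of the 4 arrays, the genes nearest to Lif 1421207_at were Klf6, Myc and Phlda1, at distances of 0.073, 0.089 and 0.094. Nearest to Clcf1 1437270_a_at were Gja1, Eps8 and Jun, at 0.058, 0.066 and 0.085. Nearest to Socs2 1449109_at were Agfg1, Ptpre and Tubb3, at 0.016, 0.039 and 0.040. These distances rest on 4 arrays and describe likeness of values alone.

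Genes used to check the treatment and the cells gave the following. Of 5 TGF-beta response genes, 4 had a probe set (Smad7, Pmepa1, Skil and Ccn2), and all 4 rose, with a median of 0.81. Each had both TGF-beta1 arrays above both low glucose arrays. Of all genes, 7.53% were called higher and 9.83% had this order of arrays. The list was chosen with earlier results of these data known, so its count is a description. Of 10 mesangial and pericyte markers, 7 passed the filter. Vim was bright, at 5298 and 6239 in TGF-beta1, against 5106 and 4346 in low glucose, and rose, as did Acta2. Pdgfrb and Itga8 lay near the filter and Gata3, Thy1 and Agtr1a below it, so these arrays show the label's defining markers weakly. Of 7 tubule markers, 5 passed, 0 rose and 2 fell, namely Cdh16, at 1682 and 1495 in TGF-beta1, against 2014 and 1919 in low glucose, and Lrp2. Pax8, not called, had 649 and 681 in TGF-beta1, against 810 and 667 in low glucose. Cdh16, Lrp2 and Pax8 were brighter than Pdgfrb and Itga8 on every array. Aqp2 and Umod, not called, were at 86.2 to 129 and 71.9 to 97.5 on the 4 arrays, near the 87.2 to 118 of Pdgfrb. Slc12a1 and Slc34a1 were below the filter. Of 7 macrophage and leukocyte markers, 6 passed and 1 fell, Csf1r, at 952 and 1269 in TGF-beta1, against 1658 and 1274 in low glucose, while Ptprc was at 24.2 to 35.8 on the 4 arrays. The summed intensity of the tubule markers was 2950 and 2879 in TGF-beta1, against 3638 and 3294 in low glucose. That of the macrophage and leukocyte markers was 1788 and 1947 in TGF-beta1, against 2300 and 2108 in low glucose. Csf1r alone gave most of the macrophage and leukocyte sum on every array, so its fall describes that gene rather than the list. The other 5 tested markers of that list were not called, at differences between -0.10 and 0.14. Of 5 endothelial markers 4 were below the filter and 1 was not called, and their sum was 203 and 288 in TGF-beta1, against 277 and 219 in low glucose. Of 3 tested podocyte markers Podxl rose and Synpo fell, and the podocyte sum was 545 and 778 in TGF-beta1, against 738 and 580 in low glucose. The mesangial and pericyte sum was 6055 and 7080 in TGF-beta1, against 5878 and 5011 in low glucose. Vim alone gave most of that sum on every array, and Pdgfrb, Itga8, Des, Cspg4 and Myl9 were not called. The part of these cells in the differences of Lif, Clcf1, Lifr or the Socs genes was not tested, and in such bulk RNA fewer cells of a type cannot be told apart from less RNA per cell.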

How the data were processed

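Arrays of total RNA from mesangial cells, 2 of TGF-beta1 and 2 of low glucose, were grouped by title. The authors deposited 1 linear intensity per probe set and array. Its summarising and scaling are not stated in the sources used here. Array medians were 80.3 and 99.6 in TGF-beta1 and 96.8 and 78.3 in low glucose. From these, log2(intensity + 46.9) was computed (the 25th percentile of all values), followed by quantile normalisation, and a filter at percentile 40 of the mean log2 values left 27022 of 45037 probe sets (64 controls aside). Differences were tested with limma 3.58.1 (R 4.3.3), two-sided, by lmFit and by eBayes with the trend option, with the array pair as a block and Benjamini-Hochberg adjustment over all kept probe sets, threshold 0.05. With the block, 1 residual degree of freedom was left and the prior was estimated as infinite; without it, these were 2 and 2.68. Precision is limited by the number of arrays.

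The pairs come from spike-in controls, and the repeat tags in the titles match for pair 1. The members, lists, block and tests were chosen with earlier results of these data known. Named genes were all members, up to 4 called genes per list by size, the TGF-beta response genes, any gene asked for by a count of 5 or fewer, and the 3 nearest genes to each of the 3 members with the largest difference. Socs1, Fos, the STAT3 target genes not called or below the filter, and the markers were named after their values were seen. Symbols came from the platform annotation, under which 34945 probe sets had 1 symbol, 932 several and 9160 none. Figures were drawn with matplotlib 3.10.9 in Python 3.11.15. Alternatives were other pseudocounts, scalings, filters, priors, 1 probe set per gene, no intensity trend, no block, leaving out cross-matching probe sets and leaving out each array.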

Additional observations from a re-analysis of the deposited data

How the results depend on the processing

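The fit with the array pair as replicate block called 4285 probe sets, 1876 higher and 2409 lower in TGF-beta1, and 7 of the members' probe sets and 16 STAT3 target genes higher. With no replicate block limma called 0, 0 and 0 (441 probe sets had an unadjusted p under 0.05), and with the replicate block and the prior of the fit without it, also 0, 0 and 0 (3910 at an unadjusted p under 0.05). Reading 1 probe set per gene gave 2503 called genes and 3 called members. Without 1 array, fitted without the block, 0 to 17 probe sets, 0 members and 0 to 1 STAT3 target genes were called. The other alternatives gave 3736 to 4400 probe sets, 5 to 7 members and 15 to 17 STAT3 target genes. The authors' scaling gave 2084 higher and 2253 lower, and median centring 1524 and 2876. Among the members' differences, directions turned only where 1 array was left out. Without TGF-beta1 replicate 1 these were Il11 (0.12), Il6st 1452843_at (-0.075), Osmr 1418674_at (-0.18) and Socs2 1449109_at (-0.040). Without TGF-beta1 replicate 2 they were Il6st 1421239_at (-0.046), Socs2 1442586_at (-0.25), Socs3 1456212_x_at (-0.13), Stat3 1426587_a_at (-0.029) and Stat3 1460700_at (-0.0082). Without low glucose replicate 1 they were Il11 (0.24), Il6st 1452843_at (-0.018), Osmr 1418674_at (-0.24) and Socs2 1418507_s_at (-0.048), and without low glucose replicate 2, Il6st 1421239_at (-0.12), Socs2 1442586_at (-0.17) and Socs3 1456212_x_at (-0.19). Leaving out 1 array leaves a group with a single array, assumed to vary like the other group. The causes of these changes were not tested beyond what each alternative changes. Signals near the filter limit what can be read from Il6 and the dimmer probe sets.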
